A study of Mus musculus with 3 samples.

Results

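The Ikaros family, the zinc finger transcription factor genes Ikzf1 to Ikzf5, was followed through the cell states of the mouse bone marrow LSK compartment. Its 5 genes were taken by symbol from the 31053 genes of the deposited matrix. In the 3470 cells that the authors kept, 4 of the 5 had transcripts. The samples were lineage-negative, Sca1-positive, Kit-positive cells, the sort that holds hematopoietic stem cells and multipotent progenitors, from 2 Helios-deficient and 2 wild-type mice. The labels call the first pair KO and give neither the allele, the part of Ikzf2 removed, a Cre driver nor the age of any mouse, and no treatment is named. An equal load of 2500 cells per mouse was pooled in 1 droplet run after each mouse had been marked with its own hashtag antibody. CD41, CD48, CD150 and Flt3 (CD135) were read in the same cells with oligonucleotide-tagged antibodies.

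Ikaros proteins bind DNA through an N-terminal block of zinc fingers and pair with one another through a C-terminal block. They recruit chromatin remodelling and deacetylase complexes, above all NuRD. Ikaros (Ikzf1) is needed for lymphoid development from its earliest steps. Helios (Ikzf2) is known from stem and progenitor cells and from regulatory T cells, Aiolos (Ikzf3) from committed B and T cells, and Eos (Ikzf4) from regulatory T cells. Pegasus (Ikzf5) is the most divergent member.

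Each count below is a unique molecular identifier (UMI), 1 captured transcript molecule, and CPM is the UMI count scaled to the total UMIs of the same mouse, or of the same mouse and state. The 4 mice held 557 to 1175 kept cells and 5729987 to 10317599 UMIs, with a median of 7599 to 8670 UMIs per cell. The sort markers were present in the RNA, Kit at a mean of 89.5 CPM and Ly6a (Sca-1) at 146 CPM over the 4 mice. Markers of other blood cells differed in level. The 3 C1q genes of macrophages summed to 8.55 and 11.04 CPM in Helios-deficient mice and 7.17 and 21.9 CPM in wild-type mice. The 6 B cell markers summed to 40.3 to 54.9 CPM over the 4 mice, 1447 of their UMIs being Cd79b, while Pax5 was at 0. The 4 hemoglobin genes summed to 61.3 and 46.3 CPM in Helios-deficient mice and 93.5 and 132 CPM in wild-type mice, without overlap. The 5 markers of mature neutrophils summed to 16.1 and 2.97 CPM in Helios-deficient mice and 4.46 and 3.23 CPM in wild-type mice. Nkg7, a gene of T and NK cells, stood at 235 to 279 CPM, while Cd3e was at 0 and the other Cd3 genes had 8 UMIs in all. The 77 cells past a minimum for such markers, Nkg7 left out, were set aside from the states, and the part of the other markers in the results was not tested.

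On build GRCm38 (mm10), Ikzf1 (ENSMUSG00000018654) lies at chr11:11684962-11772930 and Ikzf2 (ENSMUSG00000025997) at chr1:69531207-69687351. Ikzf3 (ENSMUSG00000018168) lies at chr11:98464610-98546031, Ikzf4 (ENSMUSG00000002578) at chr10:128630839-128669671 and Ikzf5 (ENSMUSG00000040167) at chr7:131388649-131410518. RefSeq start-site windows, 250 bases before to 50 after a start, were at hand for 2 of the 5 genes. Both genes are shown because no other member had a window. The windows were searched for GGGAA, the core of the DNA site of Ikaros itself. Capitals mark GGGAA, or TTCCC where the core lies on the other strand. The first Ikzf1 window (chr11:11685675-11685974, plus strand, 81.3% G and C) holds no copy, the second (chr11:11689927-11690226, plus strand, 49.0% G and C) holds 2, and the Ikzf5 window (chr7:131410429-131410728, minus strand, 65.7% G and C) holds 1.
Ikzf1 window 1: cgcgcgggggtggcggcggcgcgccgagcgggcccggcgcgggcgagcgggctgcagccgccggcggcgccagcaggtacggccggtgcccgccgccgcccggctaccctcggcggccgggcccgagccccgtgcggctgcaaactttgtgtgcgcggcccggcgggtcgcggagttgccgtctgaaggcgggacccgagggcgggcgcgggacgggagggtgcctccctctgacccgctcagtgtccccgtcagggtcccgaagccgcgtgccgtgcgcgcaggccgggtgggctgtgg
Ikzf1 window 2: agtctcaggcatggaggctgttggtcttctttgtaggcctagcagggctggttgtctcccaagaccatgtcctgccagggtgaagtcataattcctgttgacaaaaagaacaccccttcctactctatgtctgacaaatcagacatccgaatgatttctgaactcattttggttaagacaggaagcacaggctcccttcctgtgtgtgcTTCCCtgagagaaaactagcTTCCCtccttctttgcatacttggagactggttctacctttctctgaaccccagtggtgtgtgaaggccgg
Ikzf5 window: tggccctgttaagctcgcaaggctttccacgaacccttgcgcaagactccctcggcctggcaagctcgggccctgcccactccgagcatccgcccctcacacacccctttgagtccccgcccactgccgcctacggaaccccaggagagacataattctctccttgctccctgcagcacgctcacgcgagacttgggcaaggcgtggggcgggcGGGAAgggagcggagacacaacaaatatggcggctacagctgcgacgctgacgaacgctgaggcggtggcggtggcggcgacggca
Of 32851 RefSeq windows of this length, 62.7% hold GGGAA on at least 1 strand, with a median of 1 copy. The longer form TGGGAA, which contains the core, is in 25.6% of them and in none of these 3. The matches describe letters and were not tied to binding, which was not measured.

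Across all kept cells the family was captured as 2623 UMIs of Ikzf1, 2413 of Ikzf2, 481 of Ikzf5, 43 of Ikzf4 and none of Ikzf3, counts of molecules read at the 3 prime end and not scaled to transcript length. No member passed between genotypes. Ikzf1 stood at 81.7 and 84.0 CPM in Helios-deficient mice, against 80.7 and 73.4 CPM in wild-type mice. Both Helios-deficient mice were above both wild-type mice, by a margin smaller than the gap between the wild-type mice. The log2 fold change was 0.10 (SE 0.08, edgeR adjusted p = 0.73, n = 2 per genotype).

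Ikzf2, the targeted gene, stood at 73.6 and 82.7 CPM in Helios-deficient mice, against 70.6 and 67.7 CPM in wild-type mice. The groups did not overlap, and the Helios-deficient level was the higher, by 0.18 on the log2 scale (SE 0.08, 95% interval 0.02 to 0.35, edgeR adjusted p = 0.46, 0.0415 before adjustment). A 3 prime library counts transcripts that lack an internal part, and the removed part is not given. So the level of Ikzf2 tests neither the knockout nor the hashtag assignment, and it does not measure Helios protein.

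Ikzf4 gave 13 and 14 UMIs in Helios-deficient mice, or 2.27 and 1.66 CPM, against 9 and 7 UMIs, or 0.872 and 0.837 CPM, in wild-type mice. The groups did not overlap. The log2 fold change of 1.15 (SE 0.47) rests on 43 UMIs and did not pass (edgeR adjusted p = 0.39, 0.0252 before adjustment). Ikzf5 stood at 12.2 and 14.8 CPM in Helios-deficient mice, against 14.8 and 15.9 CPM in wild-type mice, a difference of −0.16 on the log2 scale (SE 0.15, edgeR adjusted p = 0.79). Of all 11592 genes tested in this comparison, 92 passed (0.794%), none of them among the 4 family members tested.

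Ikzf3 had 0 UMIs among the 32836372 of the kept cells, which allows a level of up to 0.0914 CPM (3 UMIs). A single Ikzf3 UMI was found in the 372 barcodes with 1 hashtag that the authors left out. In this compartment Aiolos RNA was below detection at this depth in both genotypes.

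**Figure D1:**
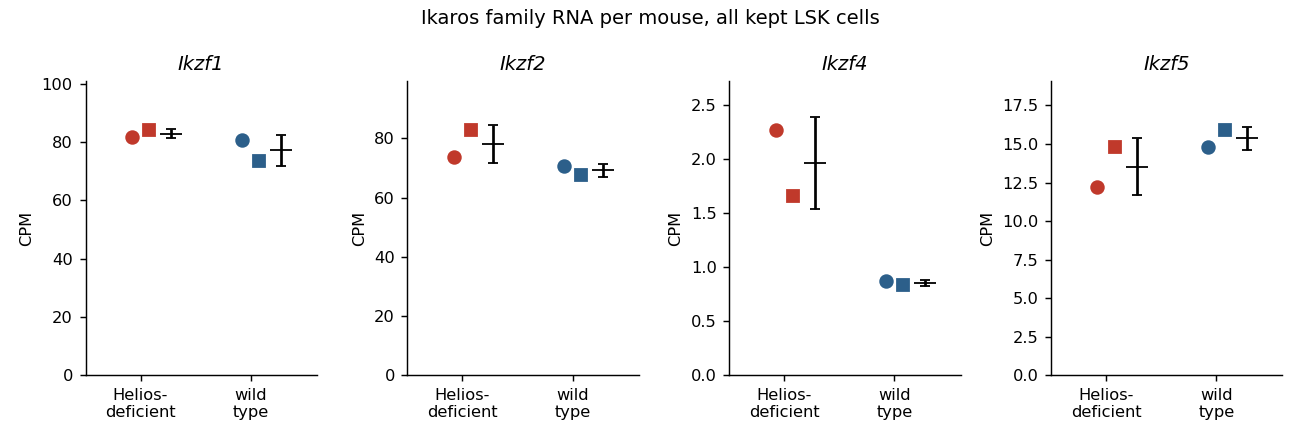
CPM of the 4 detected family genes in each mouse, Helios-deficient mice in red on the left of each panel and wild-type mice in blue on the right; circles and squares are replicates 1 and 2, and the black mark beside them is the mean with its SD (n = 2). Each axis starts at 0, and the Ikzf4 panel spans 0.837 to 2.27 CPM.

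Each cell was then placed in a state by marker UMIs and surface tags, none of them a family gene. Cells with at least 3 UMIs over Pf4, Ppbp, Gp9, Gp1bb and Gp6 were megakaryocyte-primed (284 cells). Cells with at least 3 UMIs over Car1, Klf1, Ermap and Epor were erythroid-primed (48 cells). Cells with at least 2 UMIs of Dntt, which encodes terminal transferase of early lymphocytes, were Dntt-positive (626 cells). Cells with at least 2 UMIs of Elane, the neutrophil elastase gene, were Elane-positive (39 cells). The rest were called low, middle or high for the CD48 tag and for the CD150 tag at the tag UMI levels that part all kept cells into 3 about equal groups. CD48 rises as stem cells become progenitors and CD150 marks stem cells, so CD48-low CD150-high is the gate closest to stem cells (295 cells). The others were CD48-low CD150-lower (668 cells), CD48-middle (800 cells), CD48-high CD150-high (221 cells) and CD48-high CD150-lower (412 cells). The stem cell gene Procr averaged 94.7 CPM in CD48-low CD150-high cells and 24.5 CPM in CD48-high CD150-lower cells, and the imprinted gene Meg3 averaged 93.8 and 2.4 CPM in the same order. The 7 states with at least 20 cells in every mouse were tested, each against the mean of the other 6 within mice, and the Elane-positive and erythroid-primed states are given as values.

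Among the tested states Ikzf1 was highest in Dntt-positive cells, with a mean of 115 CPM, and lowest in megakaryocyte-primed cells. The 48 erythroid-primed cells, too few for the test, had a higher mean of 127 CPM. In Dntt-positive cells it stood at 103 and 116 CPM (Helios-deficient) and 135 and 105 CPM (wild-type). The lowest of these values lay above the highest in any other tested state, 96.5 CPM in the CD48-low CD150-lower cells of a Helios-deficient mouse. The rise was 0.85 on the log2 scale (SE 0.08, edgeR adjusted p = 2.8e-19, higher in 4 of 4 mice than in each other state). It passed under all 10 alternatives, at 0.72 to 1.10.

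In megakaryocyte-primed cells Ikzf1 stood at 58.7 and 60.7 CPM (Helios-deficient) and 52.3 and 36.3 CPM (wild-type). It fell by 0.59 on the log2 scale against the other states (SE 0.12, edgeR adjusted p = 3.3e-05). When all cells were thinned to 3000 UMIs the fall was 0.77 but no longer passed (adjusted p = 0.21), with 17 to 35 cells left in this state per mouse. Between the ends of the order the mouse ranges overlapped from each state to the next, with means of 80.8, 78.1, 71.5, 69.0 and 61.4 CPM in CD48-low CD150-lower, CD48-middle, CD48-high CD150-lower, CD48-high CD150-high and CD48-low CD150-high cells. None of these 5 states passed for Ikzf1. The nearest was CD48-low CD150-high, at −0.32 (SE 0.14, edgeR adjusted p = 0.097), which passed with Nkg7 kept among the markers of T and NK cells (−0.43, adjusted p = 0.028) and when wild-type mouse 2 was left out (adjusted p = 0.049).

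The share of all 9083 genes that passed in each state is the background for these counts. It was 17.5% in CD48-low CD150-high, 22.5% in CD48-low CD150-lower, 4.08% in CD48-middle, 5.12% in CD48-high CD150-high, 18.1% in CD48-high CD150-lower, 23.3% in Dntt-positive and 21.4% in megakaryocyte-primed cells. Calls were thus common among all genes in Dntt-positive and megakaryocyte-primed cells, so that a call there does not by itself set Ikzf1 or Ikzf2 apart.

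Ikzf2 followed another order. Its mean was higher in every state set by the CD48 and CD150 tags than in the Dntt-positive and megakaryocyte-primed states. The tag states were not cleared of all lineage transcripts, and many of their cells held Mpo, a myeloid gene taken up below. In CD48-low CD150-lower cells it stood at 95.3 and 118 CPM (Helios-deficient) and 91.0 and 73.4 CPM (wild-type). It rose there by 0.39 on the log2 scale (SE 0.09, edgeR adjusted p = 2.9e-04) and passed under all 10 alternatives, the largest rise being 0.65 in cells thinned to 3000 UMIs. In CD48-middle cells it stood at 90.4 and 106 CPM (Helios-deficient) and 79.3 and 87.0 CPM (wild-type). That rise was 0.34 (SE 0.08, edgeR adjusted p = 0.0024) and 0.52 in thinned cells, and it did not pass without the mouse term (adjusted p = 0.089) or when cells with at least 3 UMIs of Nkg7 were set aside (adjusted p = 0.051).

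CD48-high CD150-high cells had a mean of 91.7 CPM, with the widest spread, 126 and 83.4 CPM in the Helios-deficient and 89.3 and 68.5 CPM in the wild-type mice. The 126 CPM came from 21 cells. This state did not pass for Ikzf2 (0.32, SE 0.12, edgeR adjusted p = 0.088), but it passed with the marker minimum 1 UMI higher (adjusted p = 0.022). It also passed with Nkg7 kept among the markers of T and NK cells (0.73, adjusted p = 0.035). That setting left 8 and 11 cells of this state in the Helios-deficient mice, under the minimum of 20. CD48-high CD150-lower (0.17, SE 0.09, adjusted p = 0.20) and CD48-low CD150-high (−0.09, SE 0.13, adjusted p = 0.71) did not pass. In every step of the Ikzf2 order the mouse ranges of neighbouring states overlapped.

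In Dntt-positive cells Ikzf2 stood at 47.7 and 68.8 CPM (Helios-deficient) and 54.3 and 56.6 CPM (wild-type). It fell by 0.34 on the log2 scale (SE 0.09, edgeR adjusted p = 0.0017). In cells thinned to equal UMIs the fall was 0.16 and did not pass (adjusted p = 0.73). In megakaryocyte-primed cells Ikzf2 stood at 37.9 and 46.5 CPM (Helios-deficient) and 45.0 and 53.3 CPM (wild-type), the lowest mean of the tested states at 45.7 CPM. This fall was 0.78 (SE 0.12, edgeR adjusted p = 3.0e-08). It passed under all 10 alternatives, from −0.68 without Helios-deficient mouse 2 to −1.61 in thinned cells. Thinning redrew the megakaryocyte-primed state and left 17 to 35 of its cells per mouse, at the lowest under the minimum of 20. The value of −1.61 thus rests on few cells and does not show a larger fall.

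**Figure D2:**
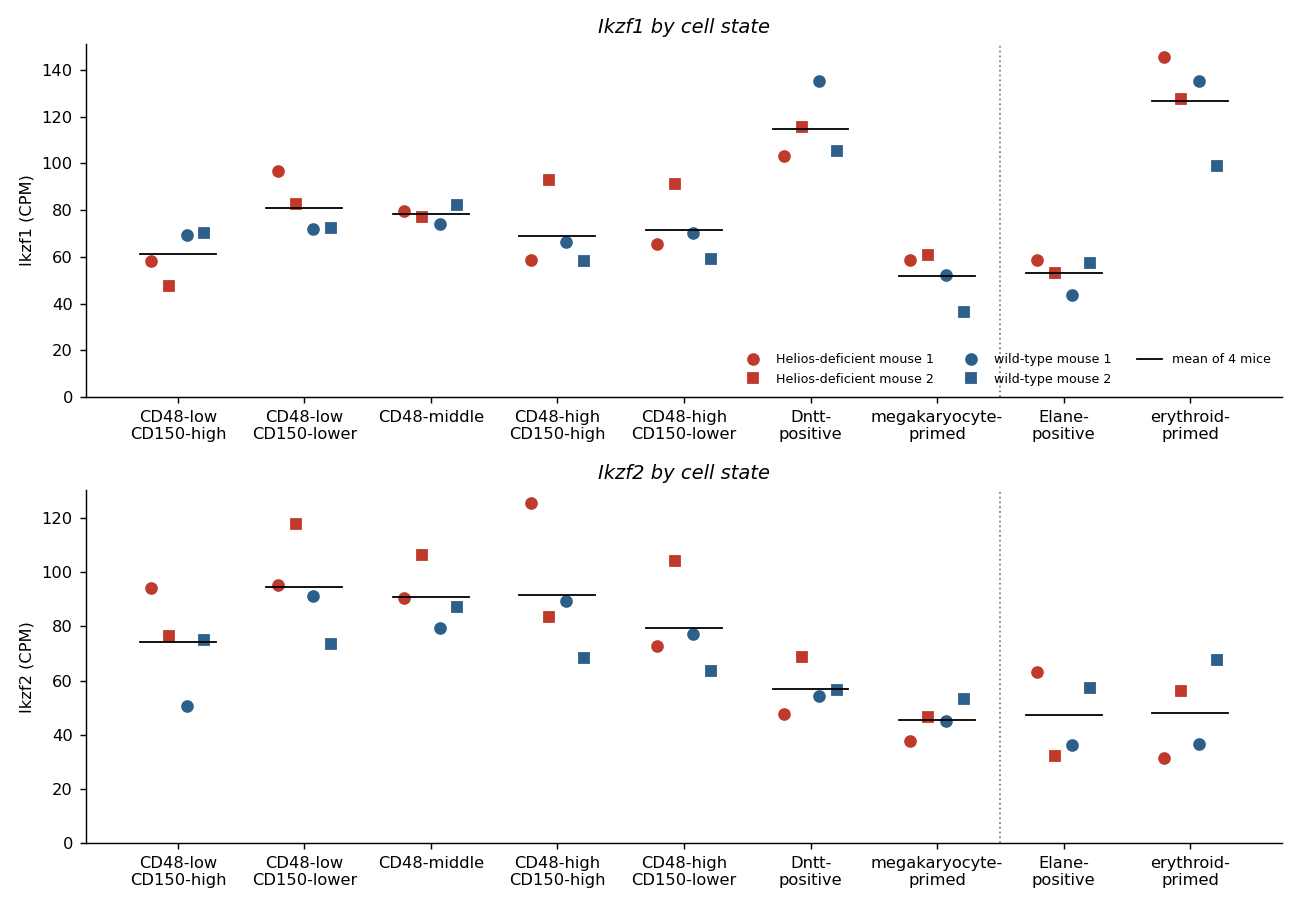
Ikzf1 (top) and Ikzf2 (bottom) in CPM by cell state, with 4 points per state (Helios-deficient mice red, wild-type mice blue) and the mean as a line; the 2 states right of the dotted line had under 20 cells in a mouse and were not tested. Ikzf1 is highest in Dntt-positive cells among the tested states (103 to 135 CPM), where Ikzf2 is at 47.7 to 68.8 CPM, and erythroid-primed cells have the higher Ikzf1 mean, 127 CPM.

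Among the tested states the Ikzf2 share was lowest in Dntt-positive cells. Of the summed Ikzf1 and Ikzf2 UMIs there, Ikzf2 made up 31.6% and 37.3% (Helios-deficient mice) or 28.7% and 35.0% (wild-type mice). In the other 6 tested states no mouse was below 39.2%, and the means were 47.1% to 56.7%. In the erythroid-primed cells, which were not tested, it was 17.9% and 30.6% (Helios-deficient mice) or 21.4% and 40.5% (wild-type mice), with a lower mean than in Dntt-positive cells, 27.6%. Capture at the 3 prime end can differ between the 2 genes, so the share compares states and not the abundance of the 2 mRNAs. In CD48-high CD150-lower cells it ranged over the 4 mice from 51.9% to 53.3%.

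**Figure D3:**
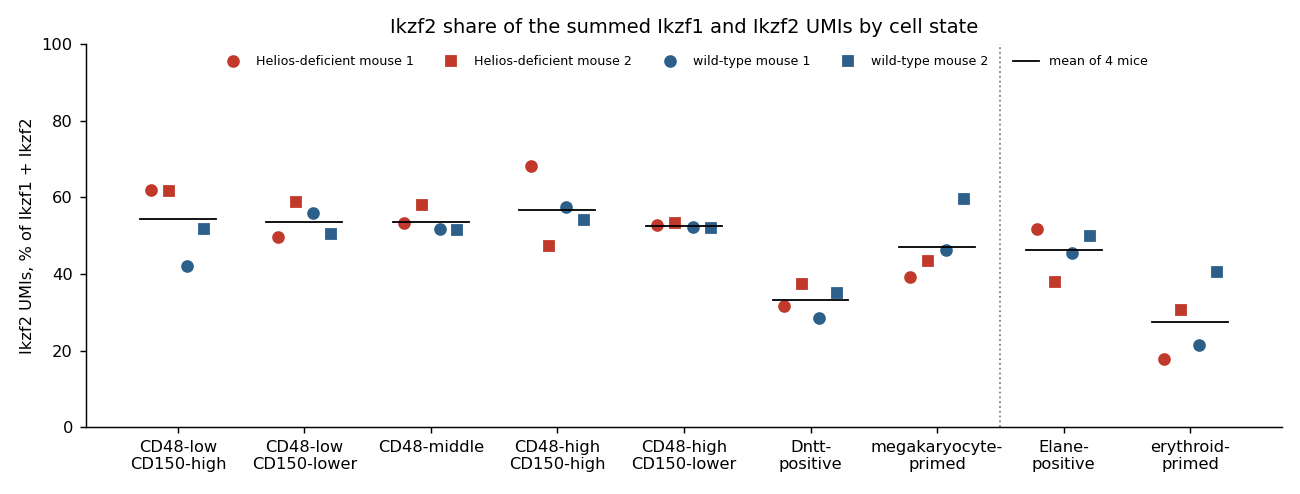
Ikzf2 UMIs as a percentage of Ikzf1 plus Ikzf2 UMIs in each mouse by cell state, Helios-deficient mice in red and wild-type mice in blue, with the mean of 4 mice as a line. Dntt-positive cells average 33.1% and the other tested states 47.1% to 56.7%; the 2 states right of the dotted line, of which erythroid-primed cells average 27.6%, had few cells and were not tested.

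The 48 erythroid-primed cells held Ikzf1 at 146 and 127 CPM (Helios-deficient) and 135 and 98.9 CPM (wild-type), from 90 UMIs. Ikzf2 was at 31.6 and 56.2 CPM (Helios-deficient) and 36.8 and 67.4 CPM (wild-type) there, from 38 UMIs. Ly6a, the Sca-1 gene of the sort, averaged 8.13 CPM in these cells, against 146 CPM over all kept cells. In the 39 Elane-positive cells Ikzf1 ranged from 43.6 to 58.8 CPM, from 40 UMIs, and Ikzf2 from 32.4 to 63.3 CPM, from 33 UMIs. Wild-type mouse 2 gave only 3 UMIs of each gene there, and wild-type mouse 1 gave 6 and 5. No cell passed both the Dntt and the Elane minimum.

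Because so few cells were Elane-positive, Dntt-positive cells with under 3 UMIs of Mpo (420 cells) were also set against Mpo-positive cells. The latter (498 cells) had at least 3 UMIs of Mpo, the myeloperoxidase gene of granulocyte and monocyte precursors. They were drawn from the Elane-positive state and from the states set by the CD48 and CD150 tags. This comparison was added after the state sizes were seen. Ikzf1 stood at 117 and 117 CPM in the Dntt-positive cells of Helios-deficient mice, and 140.4 and 113 CPM in those of the wild-type mice. In the Mpo-positive cells it stood at 57.8 and 76.3 CPM (Helios-deficient) and 63.8 and 60.2 CPM (wild-type), so the ranges were apart. The difference was 0.93 on the log2 scale (SE 0.11, edgeR adjusted p = 7.6e-10), where 24.0% of 8669 genes passed. Ikzf2 differed by −0.22 (SE 0.12, adjusted p = 0.21) and Ikzf5 by 0.17 (SE 0.25, adjusted p = 0.70). Median depth was 7753 UMIs in the Dntt-positive and 12239 in the Mpo-positive cells, and in thinned cells the Ikzf1 difference was 1.31 (adjusted p = 2.6e-06) while that of Ikzf2 turned to 0.13 (adjusted p = 0.85).

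Ikzf4 molecules lay mainly in CD48-low cells, where 27 of its 43 UMIs were found (62.8%, exact 95% interval 46.7 to 77.0%). These states held 19.9% of all UMIs. In CD48-low CD150-high cells Ikzf4 gave 7 and 4 UMIs in Helios-deficient against 3 and 0 in wild-type mice, a pooled 6.63 CPM (exact Poisson 95% interval 3.63 to 11.1). In Dntt-positive cells it gave 1 UMI, a pooled 0.158 CPM (0.0040 to 0.881). The intervals cover counting error only. Ikzf4 fell under the filter on low counts in the state fits, so its states were not tested. Of its UMIs, 21 of 27 lay in the CD48-low states in Helios-deficient mice and 6 of 16 in wild-type mice.

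Ikzf5 did not pass in any state. Its means ran from 12.7 CPM in CD48-low CD150-lower cells to 17.2 CPM in CD48-low CD150-high cells, and the mouse ranges of neighbouring states overlapped throughout. It rested on 36 to 104 UMIs per tested state, against 130 to 736 for Ikzf1, and the standard errors of its state differences ran from 0.17 to 0.26 on the log2 scale.

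Genotypes were also compared within each state, that is, among cells alike in the markers used. No member passed in any. The share of all tested genes that passed was 0.0667% in CD48-low CD150-high, 0.264% in CD48-low CD150-lower, 0.75% in CD48-middle, 0.0472% in CD48-high CD150-high, 0.12% in CD48-high CD150-lower, 0.446% in Dntt-positive and 0.366% in megakaryocyte-primed cells. Calls were thus rare for any gene.

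Ikzf2 had a positive log2 fold change in 6 of 7 states and a negative one in megakaryocyte-primed cells. The values were 0.46 (SE 0.25) in CD48-low CD150-high, 0.35 (SE 0.16) in CD48-low CD150-lower and 0.26 (SE 0.14) in CD48-middle cells. They were 0.31 (SE 0.24) in CD48-high CD150-high, 0.33 (SE 0.19) in CD48-high CD150-lower, 0.12 (SE 0.18) in Dntt-positive and −0.18 (SE 0.24) in megakaryocyte-primed cells. The smallest unadjusted p was 0.0321, in CD48-low CD150-lower cells (edgeR adjusted p = 0.85). In CD48-low CD150-high cells both Helios-deficient mice, at 94.2 and 76.5 CPM, were above both wild-type mice, at 50.8 and 75.0 CPM, although 76.5 and 75.0 CPM lay close.

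Ikzf1 differed in sign between states, at −0.45 (SE 0.26) in CD48-low CD150-high cells and 0.44 (SE 0.23) in megakaryocyte-primed cells, neither of which passed (edgeR adjusted p = 0.89 and 0.80). In CD48-low CD150-high cells it stood at 58.2 and 47.6 CPM in Helios-deficient mice, against 69.5 and 70.1 CPM in wild-type mice, without overlap, on 130 UMIs in all. The genotype by state test asks whether the genotype effect differs anywhere among the tested states. It does not set CD48-low CD150-high against megakaryocyte-primed cells, so the change of sign itself was not tested. Ikzf1 gave an unadjusted p of 0.0477 and an edgeR adjusted p of 0.99, Ikzf2 0.48 and 0.999, and Ikzf5 0.41 and 0.999, where 2 of 9346 genes passed (0.0214%). A difference of the genotype effect between states was thus not detected for any of the 3.

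**Figure D4:**
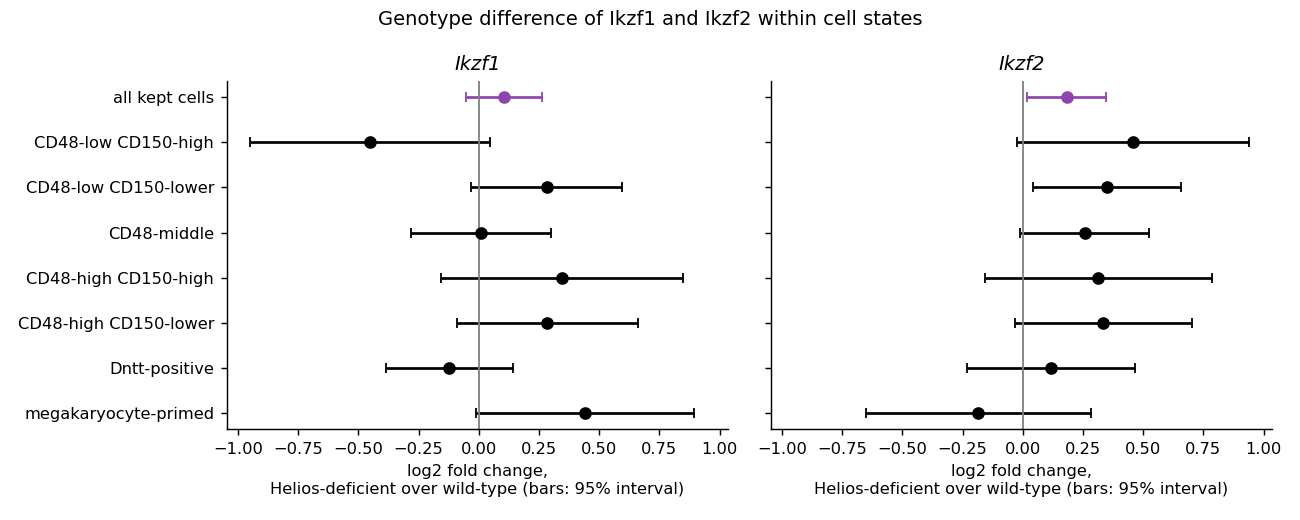
Log2 fold change of Helios-deficient over wild-type mice for Ikzf1 (left) and Ikzf2 (right) in all kept cells (top, purple) and in each tested state (black), with 95% intervals from the standard error. Ikzf2 lies right of 0 in 6 of 7 states, from 0.12 to 0.46, and no value passed after adjustment.

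The cell cycle was a second axis. Cells with at least 10 UMIs over 15 G2/M genes such as Top2a and Mki67 (588 cells) were set against cells with at most 1 (2105 cells) within mice. Ikzf2 made up a smaller share of the UMIs in the cycling cells. It stood at 51.9 and 58.5 CPM in G2/M-high and at 102 and 96.6 CPM in G2/M-low cells of the Helios-deficient mice. In the wild-type mice it stood at 57.9 and 52.4 CPM in G2/M-high and at 81.5 and 83.7 CPM in G2/M-low cells. It was lower in 4 of 4 mice with no overlap, and fell by 0.61 on the log2 scale (SE 0.08, edgeR adjusted p = 1.6e-10).

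Ikzf1 stood at 69.7 and 78.3 CPM in G2/M-high and at 93.1 and 92.9 CPM in G2/M-low cells of the Helios-deficient mice. In the wild-type mice it stood at 68.5 and 60.3 CPM in G2/M-high and at 89.0 and 89.1 CPM in G2/M-low cells. The fall was 0.30 (SE 0.07, edgeR adjusted p = 3.4e-04), also in 4 of 4 mice. Ikzf5 differed by 0.21 (SE 0.16, adjusted p = 0.29), higher in 4 of 4 mice. In this comparison 48% of 10426 genes passed, so a call alone sets no gene apart.

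Depth moved with the class, at a median of 15212 UMIs in G2/M-high and 6682 in G2/M-low cells. A lower CPM is thus a smaller share of a cell's UMIs, and molecules per cell were not compared. Cells were also thinned to 3000 UMIs, and the classes were redrawn on the thinned counts with both cuts set lower. The Ikzf2 fall was then 0.45 (adjusted p = 0.032) and the Ikzf1 fall 0.21 (adjusted p = 0.38), so the Ikzf1 call ended. The classes also differ in their mixture of states, and the part of that in the falls was not tested.

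**Figure D5:**
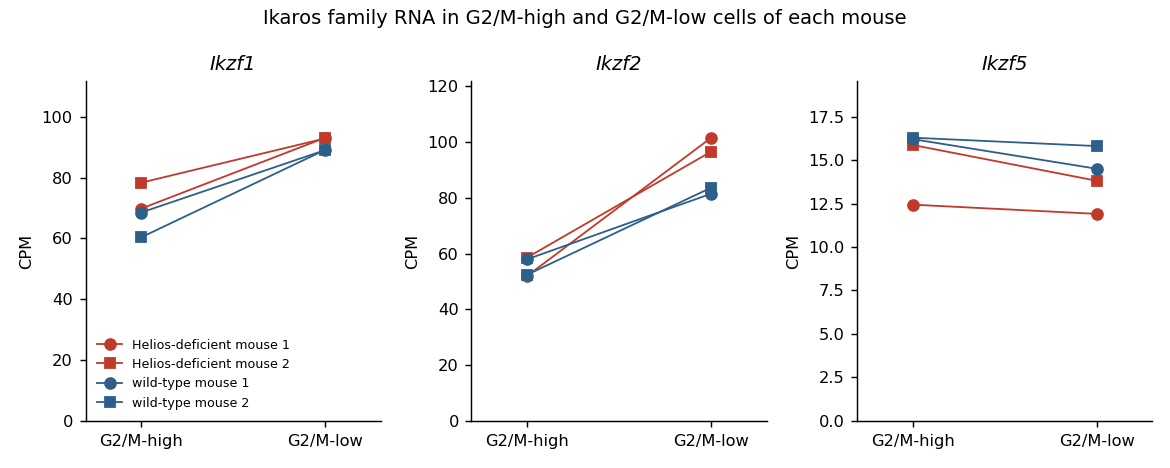
CPM of Ikzf1, Ikzf2 and Ikzf5 in G2/M-high (left) and G2/M-low (right) cells, 1 line per mouse, Helios-deficient mice in red and wild-type mice in blue. All 4 lines rise to the right for Ikzf1 and Ikzf2 and fall for Ikzf5, whose difference did not pass.

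The genes whose level followed each member most closely were sought over the 28 sums of 4 mice and 7 states, with each mouse centred, among 7717 genes of at least 10 CPM that define no state. The sums share mice, 1 run and cells of unequal depth, and the correlations are descriptions. Nearest to Ikzf1 were Gpr171 (Pearson r = 0.84), which encodes a G protein-coupled receptor, Lsp1 (0.83), an actin-binding protein of leukocytes, and Rac2 (0.83), a small GTPase of blood cells, then Cdk19 (0.82) and Rcsd1 (0.82). Nearest to Ikzf2 were Myb (0.88), a transcription factor required for definitive hematopoiesis, Tmem71 (0.81), Fgl2 (0.80), AC149090.1 (0.79) and Ptpre (0.78), a receptor-type tyrosine phosphatase. Ikzf5 had weaker neighbours, led by Mnat1 (0.70), a subunit of the kinase that activates cyclin-dependent kinases, and Ppt2 (0.67), then 3110002H16Rik (0.62), Zfp445 (0.58) and Rab17 (0.58). Ikzf1 and Ikzf2 themselves had an r of 0.09 over the 28 sums, and neither was among the neighbours of the other.

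The leading neighbours were chosen on these same sums, so their values by state illustrate the 2 patterns and are no evidence for them. Gpr171 stood at 226 and 208 CPM in Dntt-positive cells of Helios-deficient mice, against 248 and 221 CPM in those of wild-type mice, and its mean was 54.3 CPM in megakaryocyte-primed cells. Myb averaged 231 CPM in CD48-low CD150-lower, 188 CPM in Dntt-positive and 172 CPM in megakaryocyte-primed cells. Of the tested states it passed only in megakaryocyte-primed cells (−0.32, SE 0.07, edgeR adjusted p = 1.1e-04). In Dntt-positive cells it was at −0.08 (SE 0.05) and in CD48-low CD150-lower cells at 0.13 (SE 0.06). Between G2/M-high and G2/M-low cells, a split that did not choose them but used the same cells, all 5 neighbours of Ikzf2 passed lower, from −0.13 for Myb to −0.65 for Ptpre, where 48% of all genes tested passed in either direction. Of the 5 neighbours of Ikzf1, Gpr171 (−0.77), Lsp1 (−0.75), Rcsd1 (−0.46) and Rac2 (−0.09) passed lower and Cdk19 (0.16) did not pass. None of the 5 nearest to Ikzf2 passed between genotypes in all kept cells, and of those nearest to Ikzf1 only Lsp1 did (−0.30, SE 0.07, edgeR adjusted p = 0.033).

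The 19 genes of protein partners, mostly NuRD subunits with Sin3, CtBP, Smarca4 and Crbn, showed no call between genotypes. Of all 11592 genes tested, 0.794% passed. Their median log2 fold change was −0.00, against −0.03 for the partners. An unadjusted edgeR p under 0.05 was found for 1 of the 19 partners and for 1202 of all 11592 genes. The smallest p were those of the NuRD genes Mta3 (−0.24, SE 0.09, edgeR adjusted p = 0.28), Mbd2 (−0.20, SE 0.11), Chd3 (−0.14, SE 0.08) and Rbbp7 (0.08, SE 0.06). By state, 5 of the 19 passed in Dntt-positive cells, where 23.3% of all genes did, all 5 higher, with Mta3 at 1.06 (SE 0.09) and Chd3 at 0.49 (SE 0.09). In CD48-high CD150-lower cells 5 passed higher and 1, Ctbp2, lower (18.1% of all genes). In CD48-low CD150-lower cells 6 passed, all lower (22.5% of all genes), with Mta3 at −0.53 (SE 0.12) and Rbbp7 at −0.27 (SE 0.05). In CD48-low CD150-high cells 4 passed, all lower (17.5% of all genes), Mta3 among them. Ctbp1 passed higher and Chd3 lower in megakaryocyte-primed cells and none in the remaining 2 states. In G2/M-high cells 11 passed higher and 1, Chd3 at −0.78 (SE 0.09), lower, with a list median of 0.28 against −0.02 over all genes, of which 48% passed.

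Of 16 genes tied to Ikaros in lymphoid development, 13 were tested between genotypes, and 2 passed, both lower in Helios-deficient mice. Of all 11592 genes tested, 0.794% passed. The list median was −0.14, against −0.00 over all genes tested. Flt3, the cytokine receptor of lymphoid-primed progenitors, stood at 99.1 and 110.0 CPM in Helios-deficient mice against 157 and 149 CPM in wild-type mice (−0.54, SE 0.07, edgeR adjusted p = 2.8e-04). Satb1, a chromatin organiser, stood at 47.6 and 58.0 CPM against 74.2 and 76.6 CPM in wild-type mice (−0.50, SE 0.09, adjusted p = 0.010). By state, 10 of the 16 passed the filter on low counts, some of them through the Dntt-positive cells, such as Rag2 with 73 of its 89 UMIs there, so no count is given. Flt3 and Satb1, both well above the filter, stood at 2.29 (SE 0.06) and 2.55 (SE 0.08) in Dntt-positive cells, and both passed. In CD48-middle cells they were at 0.63 (SE 0.07) and 0.58 (SE 0.11), and both passed. In CD48-low CD150-high cells they fell by 1.72 (SE 0.15) and 1.77 (SE 0.23), and in megakaryocyte-primed cells by 1.83 (SE 0.13) and 1.87 (SE 0.20) on the log2 scale. They parted in CD48-low CD150-lower cells, where Satb1 passed lower (−0.56, SE 0.15) and Flt3 did not pass (0.15, SE 0.09). Both passed higher in CD48-high CD150-lower cells, Flt3 at 0.26 (SE 0.08) and Satb1 at 0.67 (SE 0.12). Neither passed in CD48-high CD150-high cells, at 0.22 (SE 0.10) and 0.40 (SE 0.16).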

How the data were processed

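Messenger RNA, antibody tags and hashtags of LSK cells from 2 Helios-deficient and 2 wild-type mice were read as separate libraries of 1 pooled 10x 3 prime v2 run, per the labels' protocols. The deposited matrix holds raw UMI counts, whole numbers with unequal cell totals, for 31053 genes in 4108 barcodes, per the file headers from software 3.0.2. Cell Ranger, Seurat 3.0.0 and mm10 are named in the submitters' processing notes. The 3470 barcodes of the authors' kept list were used with the authors' hashtag calls, and no cell shared a barcode with another mouse. The filter behind the list is not given in the sources used here. The authors' hashtag calls mark doublets of different mice, none of them kept, and no further doublet caller was run. The labels do not say whether the mice were littermates.

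UMIs were summed per mouse, or per mouse and state, and tested with edgeR 4.0.16 in R 4.3.3 (quasi-likelihood test, robust, TMM, its default filter on low counts), adjusted by Benjamini and Hochberg over all genes tested at 0.05. States and G2/M classes had the mouse as a term. States were each set against the equally weighted mean of the other states. Log2 fold changes are the first-named group over the second, the SE is the size of the log2 fold change over the root of its F, and 95% intervals are normal. Log2 values in the likeness measure are log2(CPM + 1). Tables were made in Python 3.11.15 with pandas 2.3.3. The fits were tested on simulated data.

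The family, the gene lists, the state rules and the tests were chosen with earlier results of these data known. The named genes are the 5 members, the 5 genes most correlated with each member of at least 10 CPM, and from each list the genes called between genotypes or otherwise the 4 with the smallest p. The 4 erythroid markers given select the same 48 cells as the full rule, of which 1 marker is not reported here. The rule for T and NK transcripts had included Nkg7. It took 1191 cells, although the Cd3 genes total 8 UMIs against 8310 for Nkg7, so Nkg7 was left out after its values were seen and 3 cells remained. The rule with Nkg7 was run as an alternative. The other alternatives were DESeq2 1.42.0, no robust option, no filter, each mouse left out, no cells of other types (already outside the states), equal cells of each state per mouse, other tag and marker divisions, no mouse term, and cells thinned to 3000 UMIs. Thinning left out 17 cells and redrew the states and classes on thinned counts, with lower cuts for the G2/M classes.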

Additional observations from a re-analysis of the deposited data

How the results depend on the processing

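No member passed between genotypes, in all kept cells or within a state, under any setting run, and Ikzf1 in Dntt-positive cells and Ikzf2 in CD48-low CD150-lower, megakaryocyte-primed and G2/M-high cells kept direction and call under all of theirs. The mouse number is part of no pairing, since each mouse holds 1 genotype. In cells thinned to equal UMIs Ikzf2 in Dntt-positive cells (−0.16), Ikzf1 in megakaryocyte-primed cells (−0.77) and Ikzf1 in G2/M-high cells (−0.21) no longer passed, and the cause was not tested. Ikzf2 in CD48-middle cells did not pass without the mouse term (0.34) or with Nkg7 kept in the gate (0.34). Over all genes, the 92 calls between genotypes became 33 with DESeq2, 57 without the robust option and 296 without the filter, and 126 to 565 with 1 mouse left out, 306 without Helios-deficient mouse 1 and 565 without Helios-deficient mouse 2.

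Values that changed sign, none past the threshold, were these. Ikzf2 in CD48-low CD150-high cells was 0.0093 when thinned, 0.022 with tags divided at 4 levels, and −0.19 to 0.093 with a mouse left out. Ikzf1 in CD48-high CD150-lower cells was 0.24 when thinned, 0.23 with Nkg7 kept, and −0.12 to 0.025 with a mouse left out. Ikzf2 was 0.13 between thinned Dntt-positive and Mpo-positive cells. Between genotypes in Dntt-positive cells Ikzf2 was −0.039 with Nkg7 kept and −0.21 to 0.33 with a mouse left out, and Ikzf1 −0.29 to 0.078. With a mouse left out Ikzf1 was −0.082 to 0.089 in CD48-middle and −0.11 to 0.57 in CD48-high CD150-high cells. With 2 mice per genotype, a left-out mouse leaves 1 sample that is assumed to vary like the others, and depth limits Ikzf3, Ikzf4 and, within states, Ikzf5.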
